A study of Mus musculus with 10 samples.

Results

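The comparison set crypt secretory progenitors (Sec-Pro, 4 arrays) against villus enterocytes (ENT, 2 arrays) of the mouse small intestine, over 12393 genes. The arrays were chosen by their titles alone, 6 of the 10 of the series, and every gene with a probe set of a single symbol entered. Sec-Pro is the mean of its 2 group means, so that each way of enriching the cells counted equally. Rbpj Sec-Pro came from the crypts of mice in which Rbpj had been deleted, and DBZ Sec-Pro from the crypts of mice given dibenzazepine (DBZ), an inhibitor of Notch signalling. ENT came from the villi of Atoh1-/- mice, and enterocyte progenitors (Ent-Pro, 2 arrays), used below to place the differences, from the crypts of the same genotype. The remaining 2 arrays held sorted Lgr5+ intestinal stem cells (ISC). All mice were C57BL/6, with ages not stated. The labels name neither the Cre line nor other driver behind the deletion of Rbpj or Atoh1, nor the dose of DBZ. None of the 6 samples was sorted: crypts were released over 50 min in 5 mM EDTA at 4 °C and villi over 25 min, so genotype or drug, place along the crypt-villus axis and time in EDTA change together between Sec-Pro and ENT and cannot be told apart. Whether paired arrays are separate mice is not in the labels, and p-values then cover only the scatter among these particular RNA samples, possibly a technical one.

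The intestinal epithelium renews itself from crypts, where daughters of stem cells choose between an absorptive and a secretory fate. Notch signalling, which acts through the DNA-binding protein encoded by Rbpj, keeps the transcription factor Atoh1 off in most daughters, and cells that escape Notch switch Atoh1 on and become goblet, Paneth or enteroendocrine cells. Tuft cells are usually counted with them, although reports differ on their need for Atoh1. Absorptive daughters divide, move up the villus and mature into enterocytes, which carry a brush border of digestive enzymes and transporters. Without Rbpj, or with Notch inhibited, crypts fill with secretory cells, and without Atoh1 the epithelium makes enterocytes at their expense. The comparison therefore spans both choice of lineage and maturation.

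The deposited values are log2 levels, between 2.90 and 15.18 on the 10 arrays, with array medians between 6.83 and 6.98. A value within 1 log2 unit of the mean of 3 control probe sets for bacterial trp genes (3.62 to 3.82 by array) is called near background here, and 1467 genes were near background on all arrays of both Sec-Pro and ENT. The number of arrays limits the precision, and the same 2 ENT arrays enter every difference from ENT below. Arrays correlated over the 12393 genes at 0.992 between the 2 ENT arrays, 0.982 between the Rbpj arrays and 0.993 between the DBZ arrays. The Rbpj arrays correlated with the ENT arrays at 0.948 to 0.955 and the DBZ arrays at 0.917 to 0.933. In bulk samples such as these, fewer cells of a type and less RNA per cell cannot be told apart.

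The deleted genes come first, as a check of the labels. Atoh1, the transcription factor that commits cells to the secretory fate, read 10.40 and 10.78 on the Rbpj arrays, 11.80 and 11.85 on the DBZ arrays and 4.97 and 5.18 on the ENT arrays, and 5.75 and 5.78 on the Ent-Pro arrays. All 4 Sec-Pro arrays lay far above the ENT arrays, and the difference was 6.13, SE 0.13, adjusted p = 4.65e-08. Rbpj read 6.74 and 6.62 on the Rbpj arrays, 8.26 and 8.31 on the DBZ arrays and 7.003 and 7.21 on the ENT arrays. It was lower on the Rbpj arrays than on the ENT arrays and higher on the DBZ arrays, so the difference of 0.38 for Sec-Pro as a whole (adjusted p = 0.0188) averages opposite signs, and it missed the threshold without ENT replicate 1 (0.27, adjusted p = 0.16). Where in each gene the deletion lies is not given in the sources used here, so these probe sets may lie outside the deleted part. Lgr5, a receptor that marks crypt base stem cells, read 6.31 and 8.61 on the Rbpj arrays, 8.80 and 8.37 on the DBZ arrays and 7.11 and 6.38 on the ENT arrays. Rbpj replicate 1 was lowest of all 6 arrays, the groups overlapped, and the difference of 1.28 missed the threshold (adjusted p = 0.0765). It passed without Rbpj replicate 1, at 1.85 (adjusted p = 0.000467), and without Rbpj replicate 2, at 0.70 (adjusted p = 0.045).

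Between Sec-Pro and ENT 5648 of 12393 genes (45.6%) passed limma's moderated test at a Benjamini-Hochberg adjusted p below 0.05. Of these 2480 (20.0% of genes tested) were higher and 3168 (25.6%) lower in Sec-Pro. In 2216 of the genes called higher (17.9% of genes tested) and 2877 of those called lower (23.2%) no Sec-Pro array overlapped an ENT array. Large differences were mostly upward: among called genes 210 were at least 4-fold higher and 79 at least 4-fold lower, 45 were at least 16-fold higher and 1 at least 16-fold lower, and 21 against 0 differed by 32-fold or more. Tested against a 2-fold change rather than against no change, 275 genes (2.22%) were higher and 129 (1.04%) lower. The split of calls moved with scaling. Over all genes the median difference was -0.11, and with arrays centred on their medians it was -0.30, with 1931 genes higher and 5404 lower (26.3% of calls higher, against 43.9% as deposited and 50.5% after cyclic loess). Changes near this shift are therefore not read as rises or falls of single genes. Without ENT replicate 1 the calls numbered 3900 (1914 higher, 1986 lower) and without ENT replicate 2 4166 (1978 higher, 2188 lower).

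**Figure D1:**
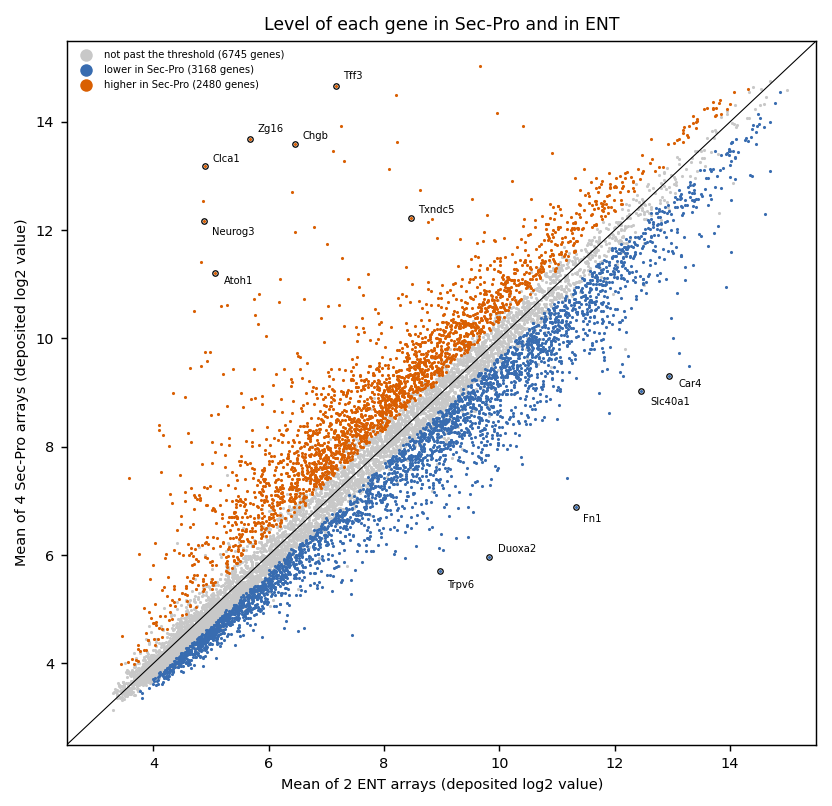
Each point is 1 of 12393 genes, placed by its mean deposited log2 value over the 2 ENT arrays (x axis) and over the 4 Sec-Pro arrays (y axis), with equal levels on the line. Orange marks the 2480 genes called higher and blue the 3168 called lower in Sec-Pro, and the points farthest above the line (such as Clca1, Tff3 and Zg16) lie farther from it than any gene below it, where Fn1 is farthest.

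The greatest differences belonged to products and regulators of secretory cells. Clca1, a protein of goblet cell mucus, read 12.83 and 13.52 on the Rbpj arrays, 12.93 and 13.49 on the DBZ arrays and 4.85 and 4.95 on the ENT arrays. Its 4 Sec-Pro arrays were alike whichever way Notch had been lost, and the difference of 8.29 (SE 0.21, adjusted p = 1.07e-07) corresponds to a 314-fold level. Zg16, a lectin of mucus and secretory granules, read 14.23 and 14.05 on the Rbpj arrays, 13.68 and 12.80 on the DBZ arrays and 5.80 and 5.56 on the ENT arrays. Here DBZ replicate 2 was lowest of the 4 Sec-Pro arrays, still far above both ENT arrays (8.01, SE 0.22, adjusted p = 1.49e-07). Tff3, the goblet cell trefoil peptide, read 14.39 and 14.64 on the Rbpj arrays, 14.84 and 14.81 on the DBZ arrays and 7.10 and 7.23 on the ENT arrays, with a spread among the 4 Sec-Pro arrays under 1 unit and a 182-fold difference (adjusted p = 3.31e-08). Neurog3, the transcription factor that starts the enteroendocrine programme, read 10.83 and 11.75 on the Rbpj arrays, 13.29 and 12.84 on the DBZ arrays and 4.94 and 4.83 on the ENT arrays. Both DBZ arrays lay above both Rbpj arrays, and all 4 lay far above ENT (7.29, SE 0.23, adjusted p = 4.06e-07).

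Ccl6, Chgb, Agr2, Tac1, Fcgbp, Ccl9, Spink4 and Atoh1 made up the rest of the 12 largest, at differences of 7.69, 7.13, 6.67, 6.59, 6.35, 6.31, 6.30 and 6.13. Ccl6 and Ccl9 encode chemokines, Chgb a protein of hormone granules, Agr2 an ER protein needed for mucin folding, Tac1 the precursor of substance P, Fcgbp a mucus protein and Spink4 a protease inhibitor of goblet cells. Fxyd3, a regulator of the sodium pump, had one of the 5 smallest adjusted p-values among higher genes beside Tff3, Atoh1, Fcgbp and Clca1. It read 12.19 and 12.26 on the Rbpj arrays, 13.34 and 13.16 on the DBZ arrays and 8.62 and 8.64 on the ENT arrays, a 17.2-fold difference (adjusted p = 1.07e-07). Some of these sizes depend on the probe set or on 1 ENT array. With the dimmest probe set the difference was 2.72 for Clca1, 6.90 for Zg16, 5.05 for Neurog3, 6.26 for Ccl6 and 5.57 for Agr2, all still past the threshold. Without ENT replicate 1 it was 5.94 for Agr2 and 5.64 for Spink4, and without ENT replicate 2 it was 7.41 and 6.96.

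At the other end, Fn1, which encodes the matrix protein fibronectin, read 5.76 and 8.55 on the Rbpj arrays, 6.42 and 6.81 on the DBZ arrays and 11.32 and 11.34 on the ENT arrays. The ENT arrays were nearly identical and lay above every Sec-Pro array, among which Rbpj replicate 2 stood highest (-4.45, SE 0.60, adjusted p = 0.000519). Duoxa2, the maturation factor of the hydrogen peroxide-producing oxidase Duox2, read 5.46 and 5.77 on the Rbpj arrays, 5.89 and 6.73 on the DBZ arrays and 10.33 and 9.31 on the ENT arrays, a 14.5-fold lower level in Sec-Pro (adjusted p = 4.32e-05). Car4, a membrane carbonic anhydrase of the brush border, read 8.64 and 9.88 on the Rbpj arrays, 9.03 and 9.69 on the DBZ arrays and 13.24 and 12.65 on the ENT arrays, with no overlap (-3.64, SE 0.34, adjusted p = 8.99e-05). Trpv6, the apical calcium channel, read 5.59 and 6.37 on the Rbpj arrays, 5.37 and 5.46 on the DBZ arrays and 8.08 and 9.87 on the ENT arrays. Its ENT arrays differed by more than 1 unit, and the lower of them was still above all 4 Sec-Pro arrays (-3.28, SE 0.42, adjusted p = 0.000405). The size for Fn1 moved with the settings: -1.01 with the dimmest probe set, -2.73 with the mean of its probe sets, -3.75 without Rbpj replicate 1 and -5.15 without Rbpj replicate 2, each past the threshold. Trpv6 differed by -4.18 without ENT replicate 1 and -2.38 without ENT replicate 2.

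Pmm1, a phosphomannomutase, differed by -3.75, Slc40a1, the iron exporter ferroportin, by -3.42, Dmbt1, a scavenger receptor of mucosal defence, by -3.38, and Car2, the cytosolic carbonic anhydrase, by -3.28. Pcsk6, a proprotein convertase, differed by -3.13, Slc13a1, a sulfate carrier, by -3.01, Akp3, an intestinal alkaline phosphatase, by -2.93 and Reg1, a secreted lectin, by -2.99. Reg1 missed the threshold without ENT replicate 1 (-2.95, adjusted p = 0.0839) and without ENT replicate 2 (-3.04, adjusted p = 0.0745). The 5 lower genes with the smallest adjusted p-values were Foxq1, Egln3, Fcgrt, Kcnk5 and Naaa, at -2.93, -2.60, -2.28, -2.16 and -2.11. Naaa, a lysosomal amidase, illustrates how little some of them varied within groups: it read 8.44 and 8.37 on the Rbpj arrays, 8.40 and 8.45 on the DBZ arrays and 10.48 and 10.58 on the ENT arrays.

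**Figure D2:**
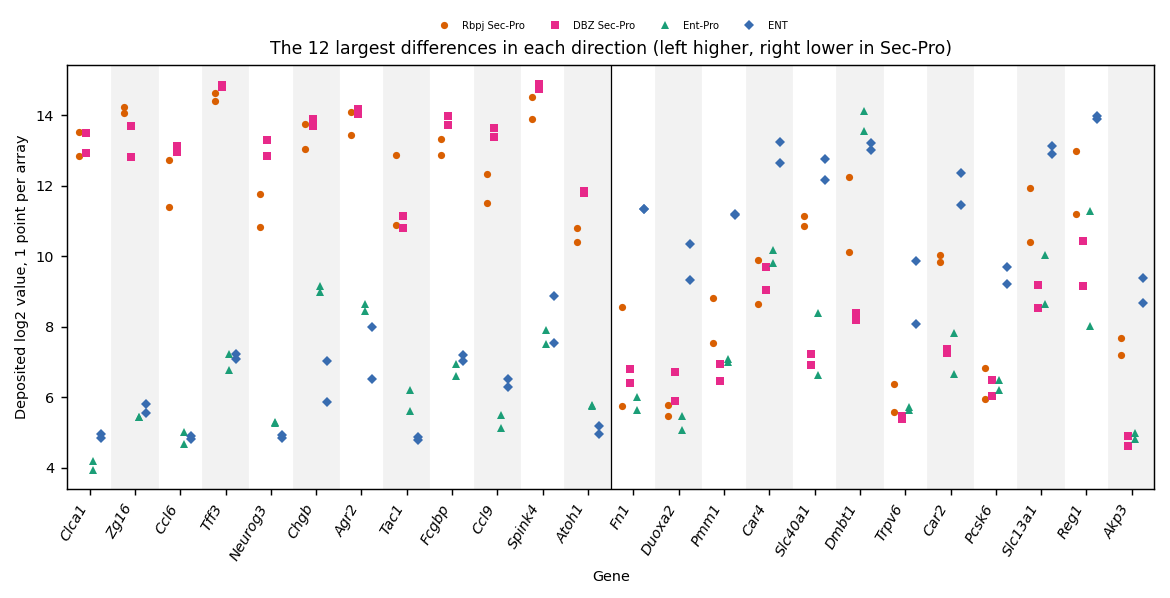
The deposited log2 value (y axis) of the 12 genes with the largest differences in each direction (x axis), 1 point per array, for 2 Rbpj Sec-Pro, 2 DBZ Sec-Pro, 2 Ent-Pro and 2 ENT arrays. The genes at left sit above 10 on every Sec-Pro array and below 9 on every ENT array, and those at right sit lower on all 4 Sec-Pro arrays than on both ENT arrays.

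Goblet cell products, the mucus and granule proteins of goblet cells, were higher in Sec-Pro almost without exception. Of 17 measured members 15 were higher and 0 lower, with a median difference of 5.00 against -0.11 over all genes tested. Here and for the lists below, the shares over all genes tested are 20.0% higher and 25.6% lower. The mean level of the list was 11.38 and 11.86 on the Rbpj arrays, 12.004 and 12.17 on the DBZ arrays and 6.90 and 7.34 on the ENT arrays. Muc13 and Kcnma1 were the 2 members that missed the threshold, at 0.071 and 0.18, and Muc13, a membrane mucin, was high on all 6 arrays, from 13.35 to 13.66 in Sec-Pro and 13.43 and 13.37 in ENT. Retnlb, a secreted resistin-like protein, varied most within Sec-Pro, from 5.63 on Rbpj replicate 1 to 10.46 on Rbpj replicate 2. Its difference of 2.87 only just passed (adjusted p = 0.0461) and was lost without ENT replicate 1 (adjusted p = 0.181), as it was under 10 other settings. Without Rbpj replicate 1 it was 4.08 and without Rbpj replicate 2 1.66.

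Paneth cell products, the antimicrobial proteins made at the crypt base, were higher for 9 of 10 measured members, with 0 lower and a median of 4.77. Lyz1, Paneth cell lysozyme, read 15.05 and 15.05 on the Rbpj arrays, 15.01 and 15.03 on the DBZ arrays and 8.22 and 11.10 on the ENT arrays. The Sec-Pro arrays were within 0.1 unit of the highest value of the array, so that the 41.4-fold difference is at least that large (adjusted p = 0.000264). Mmp7, the protease that activates Paneth cell defensins, read 13.35 and 13.18 on the Rbpj arrays, 13.97 and 14.002 on the DBZ arrays and 6.69 and 9.74 on the ENT arrays (5.41, SE 0.66, adjusted p = 0.000319). Mptx1, a pentraxin, read 11.53 and 12.81 on the Rbpj arrays, 11.87 and 12.01 on the DBZ arrays and 5.43 and 8.15 on the ENT arrays (5.27, SE 0.68, adjusted p = 0.000411). For all 3 genes ENT replicate 2 stood well above ENT replicate 1, and the mean of the Paneth list was 6.21 on ENT replicate 1 and 7.98 on ENT replicate 2, against 7.26 and 7.38 on the Ent-Pro arrays. Without ENT replicate 1 the differences shrank to 3.93, 3.88 and 3.91, all still past the threshold, and the median of the list was 3.84. Without ENT replicate 2 the median was 5.43. Pla2g2a, a secreted phospholipase, had ENT arrays at 5.40 and 5.14 and a difference of 5.34, and Nupr1, a stress-induced chromatin protein, had a difference of 4.82. The labels describe the Atoh1-/- epithelium as without secretory cells; whether the Paneth cell transcripts on ENT replicate 2 came from such cells was not tested. With the dimmest probe sets Lyz1 differed by 1.17 and Nupr1 by 3.57, both past the threshold.

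Enteroendocrine hormones and granule proteins were higher for 21 of 25 measured members, with 0 lower and a median of 2.53. Chgb read 13.74 and 13.04 on the Rbpj arrays, 13.88 and 13.68 on the DBZ arrays and 5.87 and 7.03 on the ENT arrays, a 140.4-fold difference (adjusted p = 2.03e-06). Tac1 read 12.88 and 10.88 on the Rbpj arrays, 10.79 and 11.13 on the DBZ arrays and 4.88 and 4.78 on the ENT arrays, highest on Rbpj replicate 1. Gip, the incretin hormone of K cells, read 12.80 and 11.96 on the Rbpj arrays, 11.83 and 11.31 on the DBZ arrays and 6.29 and 6.63 on the ENT arrays (5.52, SE 0.24, adjusted p = 2.03e-06), and Gcg, the precursor of the glucagon-like peptides, read 10.74 and 9.31 on the Rbpj arrays, 9.05 and 9.27 on the DBZ arrays and 4.65 and 5.21 on the ENT arrays (4.66, SE 0.41, adjusted p = 7.08e-05). Both hormone genes read higher on each Rbpj array than on each DBZ array, and no array overlapped ENT. Reg4, a lectin of enteroendocrine and deep crypt secretory cells, differed by 5.98, with ENT arrays at 6.41 and 8.19. Its difference was 5.09 without ENT replicate 1 and 6.88 without ENT replicate 2.

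Transcription factors of the secretory lineages were higher for 20 of 25 members and lower for 1, with a median of 2.51. Beside Atoh1 and Neurog3, Neurod1, which acts downstream of Neurog3 in endocrine cells, read 9.94 and 9.20 on the Rbpj arrays, 11.66 and 11.24 on the DBZ arrays and 4.59 and 4.82 on the ENT arrays (5.81, SE 0.23, adjusted p = 1.49e-06). Spdef, a factor of goblet and Paneth cell maturation, read 10.22 and 9.89 on the Rbpj arrays, 11.10 and 12.11 on the DBZ arrays and 5.83 and 5.83 on the ENT arrays (4.998, SE 0.25, adjusted p = 3.55e-06), and Insm1, an endocrine zinc finger factor, read 9.11 and 9.35 on the Rbpj arrays, 10.47 and 10.06 on the DBZ arrays and 5.11 and 4.85 on the ENT arrays (4.76, SE 0.15, adjusted p = 4.06e-07). For each of the 3 all Sec-Pro arrays lay far above both ENT arrays. Klf4, a factor of goblet cells that enterocytes also make, was the 1 member that was lower, and it was high everywhere: 11.96 and 11.77 on the Rbpj arrays, 11.95 and 12.08 on the DBZ arrays and 12.50 and 12.50 on the ENT arrays (-0.56, adjusted p = 0.00274).

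Tuft cell genes, which mark the chemosensory cells of the epithelium, did not follow the other secretory lists. Of 14 measured members 0 were higher and 4 lower (Trpm5, Gfi1b, Il17rb and Il25), with a median of -0.67. The lower share of 28.6% is near the 25.6% of all genes tested and is not read as a change of the list. Trpm5, a taste transduction channel, read 7.12 and 8.51 on the Rbpj arrays, 8.56 and 8.58 on the DBZ arrays and 9.62 and 9.04 on the ENT arrays, with Rbpj replicate 1 lowest (-1.14, SE 0.38, adjusted p = 0.0355). Gfi1b, a transcription factor of tuft cells, read 5.98 and 6.47 on the Rbpj arrays, 6.69 and 6.58 on the DBZ arrays and 7.35 and 7.11 on the ENT arrays (-0.80, SE 0.17, adjusted p = 0.00418). Dclk1, the most used tuft cell marker and outside the naming rule, read 5.49 and 9.26 on the Rbpj arrays, 8.17 and 8.23 on the DBZ arrays and 9.55 and 8.81 on the ENT arrays, and its difference of -1.40 missed the threshold (adjusted p = 0.204). The list's mean was 6.64 on Rbpj replicate 1, 8.29 on Rbpj replicate 2, 8.13 and 8.07 on the DBZ arrays and 8.60 and 8.26 on the ENT arrays, so 1 Sec-Pro array stood apart from the other 3 and those overlapped ENT. Calls in the list were sensitive to single arrays: 11 were lower without Rbpj replicate 2, 1 was lower without DBZ replicate 2 and likewise without ENT replicate 1, and 2 were lower without ENT replicate 2 or without either Ent-Pro array. Trpm5 missed the threshold in each of these except the first (adjusted p = 0.231 without ENT replicate 1). Il25 was near background in both groups.

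**Figure D3:**
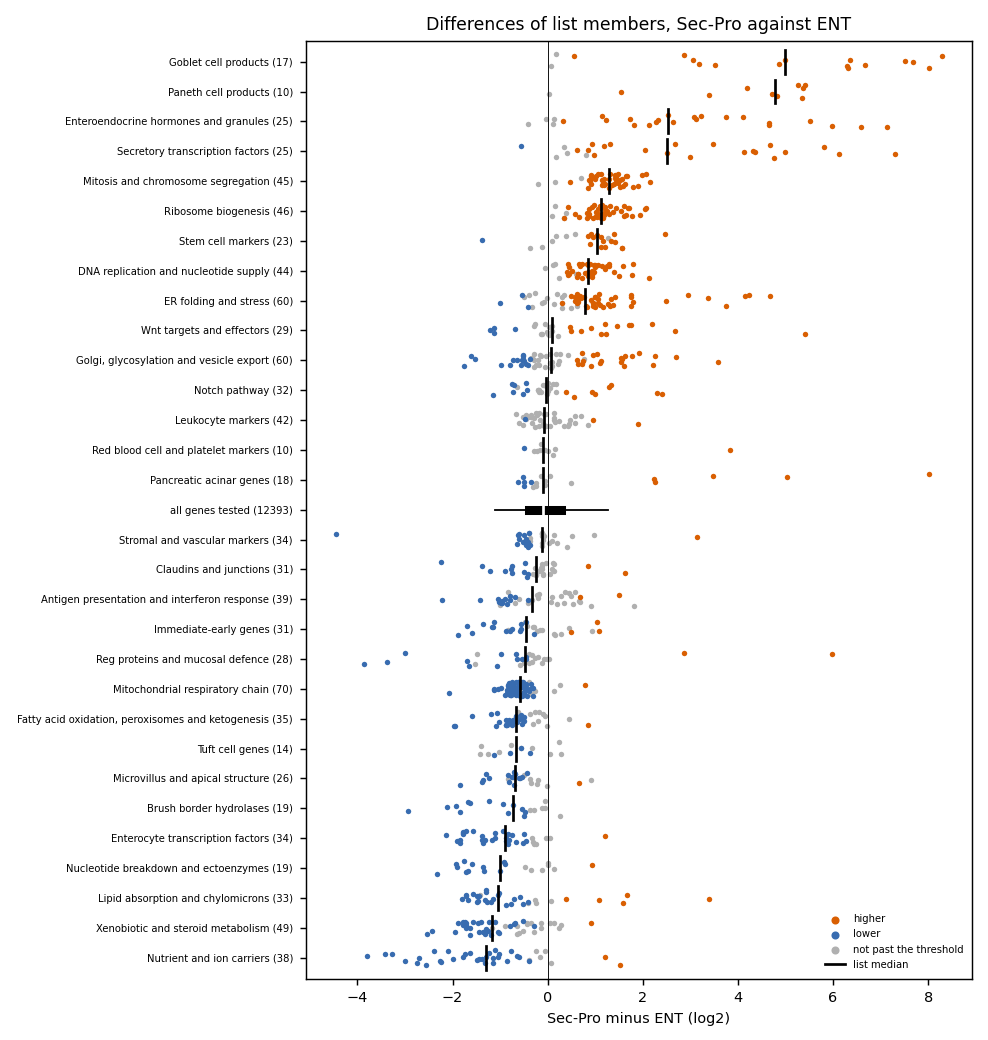
The difference Sec-Pro minus ENT on the log2 scale (x axis) for every measured member of 30 gene lists (y axis, number of measured members in brackets), ordered by median, with members called higher in orange, called lower in blue and others in grey. For all 12393 genes the thick bar spans the middle 50% and the thin line the middle 90%; goblet and Paneth cell products lie farthest right, and nutrient and ion carriers farthest left with a median of -1.31.

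Secretory cells fold and export large amounts of protein through the endoplasmic reticulum (ER). Genes of ER folding and the ER stress response were higher for 42 of 60 measured members and lower for 3, with a median of 0.79. Txndc5, a protein disulfide isomerase, read 11.84 and 11.81 on the Rbpj arrays, 12.55 and 12.67 on the DBZ arrays and 8.58 and 8.36 on the ENT arrays (3.74, SE 0.11, adjusted p = 2.54e-07). Ern2, the stress sensor IRE1 beta of goblet cells, read 9.55 and 9.82 on the Rbpj arrays, 10.93 and 11.43 on the DBZ arrays and 5.75 and 5.77 on the ENT arrays (4.68, SE 0.23, adjusted p = 3.55e-06), Pdia5, another disulfide isomerase, differed by 4.23 and Fkbp11, a prolyl isomerase of secretory cells, by 4.14. Selenom, an ER selenoprotein, read 11.30 and 11.53 on the Rbpj arrays, 12.97 and 13.001 on the DBZ arrays and 9.07 and 8.61 on the ENT arrays (3.37, SE 0.14, adjusted p = 2.03e-06). For each of the 5 the DBZ arrays lay above the Rbpj arrays, and those above ENT. Ero1a, an ER oxidase, and Sel1l, of the ER degradation machinery, were lower, at -1.002 and -0.54; Ero1a missed the threshold without ENT replicate 2 (-0.89, adjusted p = 0.0709). With their dimmest probe sets Fkbp11 and Sel1l missed it too (0.16 and -0.028).

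Promoters of this list are shown because most of its members moved together and some carry a known element. The ER stress response element, to which the factor ATF6 binds together with NF-Y, was searched on both strands as CCAAT, any 9 bases and CCACG in the 250 bases before the start of each gene (RefSeq, GRCm38.p6; 48 of the 60 members matched, with 56 promoters). It was in 10 of these 56 promoters (17.9%), against 0.113% of all 32851 promoters, 0.238% of those of all genes called higher and 0.0601% of those of genes called lower. Among the list's promoters of members called higher the share was 16.2% (6 of 37), no higher than in the list as a whole. Members with the element that were not called were Dnajc3, Derl3, Syvn1 and Ero1b, at 0.61, 0.19, 0.14 and -0.32. Within the list the element was therefore not particular to members called higher. The 3 members with the element and the largest differences follow, with the element in capitals (reversed, it reads CGTGG, 9 bases and ATTGG). Pdia6 lies at chr12:17266339-17266588 on the plus strand, Creld2 at chr15:88819396-88819645 on the plus strand and Hsp90b1 at chr10:86705445-86705694 on the minus strand.
Pdia6: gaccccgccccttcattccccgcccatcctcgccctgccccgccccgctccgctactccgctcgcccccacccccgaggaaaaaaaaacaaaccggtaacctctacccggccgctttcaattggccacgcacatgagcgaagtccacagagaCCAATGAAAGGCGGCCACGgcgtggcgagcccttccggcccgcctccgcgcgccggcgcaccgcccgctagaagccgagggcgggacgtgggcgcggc
Creld2: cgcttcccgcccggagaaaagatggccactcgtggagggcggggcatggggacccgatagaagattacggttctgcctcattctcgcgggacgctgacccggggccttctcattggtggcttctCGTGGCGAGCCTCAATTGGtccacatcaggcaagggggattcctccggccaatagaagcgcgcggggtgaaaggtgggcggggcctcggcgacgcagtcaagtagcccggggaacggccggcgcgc
Hsp90b1: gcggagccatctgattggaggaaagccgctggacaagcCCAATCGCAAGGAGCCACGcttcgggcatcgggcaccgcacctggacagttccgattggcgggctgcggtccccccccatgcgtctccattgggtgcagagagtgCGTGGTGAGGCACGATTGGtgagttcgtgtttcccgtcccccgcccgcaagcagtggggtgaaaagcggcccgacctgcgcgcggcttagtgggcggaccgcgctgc
Pdia6, a disulfide isomerase, read 11.65 and 11.71 on the Rbpj arrays, 12.66 and 13.08 on the DBZ arrays and 9.79 and 9.77 on the ENT arrays (2.50, SE 0.13, adjusted p = 3.95e-06). Creld2, a stress-induced ER protein, differed by 1.75 and Hsp90b1, the ER chaperone GRP94, by 1.27. In Hsp90b1 a copy began 212 bases before the start and another, reversed, 107 bases before it. Named for their promoters, these 3 genes were chosen after their values were seen.

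Genes of the Golgi, glycosylation and vesicle export were called in both directions. Of 60 members 21 were higher (35%, above the 20.0% of all genes) and 16 lower (26.7%, near the 25.6% of all genes). The median of 0.07 was -0.13 with centred arrays. Against Ent-Pro 29 of the 60 were higher (48.3%, against 9.27% of all genes) and 0 lower, with a median of 0.44. Rab3d and Rab27b, small GTPases of secretory granules, differed by 2.71 and 2.22, Tmed6, a cargo receptor, by 3.57, Galnt7, which initiates or extends mucin-type glycans, by 1.92, and Snap25, a SNARE of regulated exocytosis that was near background in ENT, by at least 2.33-fold. Papss2, which makes the sulfate donor, and St3gal4, a sialyltransferase, were lower by -1.76 and -1.61. Without ENT replicate 1 the lower members of the list numbered 6. For Rab3d and Papss2 the call rests on the probe set chosen: with the probe set of lowest mean their differences were -0.072 and -0.17, neither past the threshold.

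Sec-Pro came from crypts, where cells divide, and genes of cell division were higher than in the villus. DNA replication and nucleotide supply had 39 of 44 members higher and 0 lower (median 0.85), mitosis and chromosome segregation 42 of 45 higher and 0 lower (median 1.29), and ribosome biogenesis 42 of 46 higher and 0 lower (median 1.11). Pola1, the catalytic subunit of DNA polymerase alpha, read 7.99 and 8.77 on the Rbpj arrays, 8.54 and 8.32 on the DBZ arrays and 5.78 and 6.79 on the ENT arrays (2.12, SE 0.29, adjusted p = 0.000515). Mcm4, of the replicative helicase, differed by 1.57. Mki67, the proliferation marker, read 10.14 and 11.13 on the Rbpj arrays, 11.10 and 11.57 on the DBZ arrays and 8.71 and 9.30 on the ENT arrays (1.98, SE 0.28, adjusted p = 0.000604). Bub1, a spindle checkpoint kinase, differed by 2.07 and Smc2, a condensin subunit, by 2.15. Nop58 and Ncl, proteins of the nucleolus, differed by 2.07 and 2.04, and Gnl3, nucleostemin, by 1.77. All 4 Sec-Pro arrays were above both ENT arrays for each of these 8 genes. Without ENT replicate 2 the higher members of the DNA replication list numbered 23. Top2a, the mitotic topoisomerase, depends on the probe set: 1.80 for the brightest and -0.35 for the dimmest (adjusted p = 0.0252), so its direction is not read. Bub1 differed by 0.72 with its dimmest probe set, still past the threshold.

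Promoters of mitosis genes are shown for the same reason. Many carry a CCAAT box, the site of NF-Y, and the cell cycle homology region, here TTTGAA, which the DREAM and MuvB complexes use. In the 250 bases before the start, on either strand, CCAAT was in 31 of the 42 promoters of the list (73.8%; 39 of 45 members matched) against 33.8% of all promoters, and TTTGAA in 17 (40.5%) against 15.99%. Of the promoters of all genes called higher 37.3% held CCAAT and 12.04% TTTGAA. The NF-Y site was not particular to mitosis genes. It stood in 60.7% of ER folding promoters, 55.6% of DNA replication promoters and 42.1% for xenobiotic metabolism, a list mostly lower in Sec-Pro. In the other lists searched its share was 18.2% to 33.3%. The homology region stood in 22.8% of xenobiotic promoters and in 6.90% to 19.15% for the other lists, below its share for mitosis. The 2 members with both motifs and the largest differences are Smc2, at chr4:52438971-52439220 on the plus strand, and Mki67, at chr7:135716380-135716629 on the minus strand, with both motifs in capitals on either strand (reversed, they read ATTGG and TTCAAA).
Smc2: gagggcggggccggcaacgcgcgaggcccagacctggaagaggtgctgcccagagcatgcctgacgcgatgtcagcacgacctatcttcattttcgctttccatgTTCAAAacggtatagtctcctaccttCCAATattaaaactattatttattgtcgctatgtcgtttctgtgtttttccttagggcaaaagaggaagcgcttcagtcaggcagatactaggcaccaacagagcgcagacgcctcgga
Mki67: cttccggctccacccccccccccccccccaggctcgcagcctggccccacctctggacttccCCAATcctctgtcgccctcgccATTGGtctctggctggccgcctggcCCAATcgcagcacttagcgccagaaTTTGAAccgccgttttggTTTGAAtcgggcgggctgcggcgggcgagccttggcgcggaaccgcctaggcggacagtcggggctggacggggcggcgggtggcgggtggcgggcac
In the Mki67 window CCAAT stood 3 times and TTTGAA 2 times, with the nearest TTTGAA beginning 98 bases before the start.

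Stem cell markers were higher for 15 of 23 members and lower for 1, with a median of 1.04. Prom1, a membrane protein of crypt cells, read 11.64 and 11.72 on the Rbpj arrays, 12.81 and 12.58 on the DBZ arrays and 10.82 and 10.43 on the ENT arrays (1.56, SE 0.14, adjusted p = 7.97e-05), Ephb3, a receptor that positions cells in the crypt, read 8.66 and 8.76 on the Rbpj arrays, 9.84 and 10.46 on the DBZ arrays and 7.91 and 7.81 on the ENT arrays (1.57, SE 0.17, adjusted p = 0.00018), and Tnfrsf19, a Wnt-responsive receptor near background in ENT, was at least 4.64-fold higher. Both DBZ arrays exceeded both Rbpj arrays for these 3 genes. Lrig1, an inhibitor of ErbB receptors, and Msi1, an RNA-binding protein, differed by 1.41 and 1.40, but by -0.25 and -0.55 with their dimmest probe sets, as did Tnfrsf19 (-0.17). Vdr, the vitamin D receptor, which enterocytes also make, was the 1 lower member (-1.38). With the dimmest probe sets the list had 9 higher and 2 lower members, with a median of 0.80.

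Wnt targets and effectors were higher for 13 of 29 members and lower for 4, with a median of 0.10 that was -0.10 with centred arrays. Sox4, a factor of early secretory cells, read 11.73 and 12.85 on the Rbpj arrays, 13.57 and 13.47 on the DBZ arrays and 10.16 and 10.30 on the ENT arrays (2.68, SE 0.26, adjusted p = 0.000101). Ccnd1 and Ccnd2, D-type cyclins, differed by 1.71 and 1.76, and Wnt3, the Wnt ligand made by Paneth cells, was near background in ENT and at least 2.70-fold higher in Sec-Pro. Fzd5, a Wnt receptor, and Sp5, a Wnt-induced factor, were lower, at -1.21 and -1.14; Sp5 missed the threshold without ENT replicate 2 (adjusted p = 0.0586). Sox4 and Ccnd2 missed it with their dimmest probe sets (0.065 and 0.36).

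In the Notch pathway 8 of 32 members were higher and 7 lower, with a median of -0.03. These shares, 25.0% and 21.9%, are near those of all genes tested, and the median was 0.014 after cyclic loess, so the counts are no result about the list. Against ENT, DBZ had 9 higher and 8 lower members (21.9% and 23.3% of all genes tested) and Rbpj 2 and 6 (14.8% and 21.0% of all genes). Among the members named by rule are ligands. Dll1, a ligand carried by secretory progenitors, read 10.04 and 11.26 on the Rbpj arrays, 11.46 and 11.43 on the DBZ arrays and 8.81 and 8.70 on the ENT arrays (2.29, SE 0.27, adjusted p = 0.000277), and Dll4, a further ligand, read 8.01 and 8.07 on the Rbpj arrays, 8.56 and 8.86 on the DBZ arrays and 5.87 and 6.07 on the ENT arrays (2.40, SE 0.14, adjusted p = 8.81e-06). Neither overlapped ENT. Lower members named by rule were Numb, an inhibitor of Notch receptors, at -1.14, and Dtx1, a ubiquitin ligase, at -0.76; Dtx1 missed the threshold without either ENT array (adjusted p = 0.156 and 0.0999). Notch4, a receptor, was higher by 1.33 with the brightest probe set and -0.10 with the dimmest. Without ENT replicate 1 the list had 5 higher and 4 lower members, and without ENT replicate 2 it had 4 lower.

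Genes of absorption were lower in Sec-Pro. Nutrient and ion carriers had 31 of 38 members lower and 2 higher, with a median of -1.31, the lowest of the 30 lists. S100g, the calcium-binding protein of calcium uptake, read 11.66 and 13.01 on the Rbpj arrays, 5.67 and 7.63 on the DBZ arrays and 12.97 and 13.61 on the ENT arrays. Only the DBZ arrays were far below ENT: Rbpj replicate 2 exceeded ENT replicate 1, and the groups overlapped although the difference passed (-3.80, SE 0.79, adjusted p = 0.00432). Slc40a1 read 10.86 and 11.14 on the Rbpj arrays, 6.92 and 7.23 on the DBZ arrays and 12.16 and 12.76 on the ENT arrays, again lowest on the DBZ arrays but below ENT on all 4. Aqp7, a glycerol channel, read 7.56 and 7.49 on the Rbpj arrays, 6.45 and 5.64 on the DBZ arrays and 9.69 and 9.40 on the ENT arrays (-2.75, SE 0.25, adjusted p = 7.66e-05). The 2 higher members were Slc29a1, a nucleoside carrier, at 1.53, and Aqp1, a water channel, at 1.21, which missed the threshold without ENT replicate 2 (0.99, adjusted p = 0.0963).

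The hexamer bound by many nuclear receptors, AGGTCA, was searched in the same way because the list holds targets of the vitamin D receptor and of HNF4. It stood in 15 of the 47 promoters of measured carriers (31.9%; 32 of 38 members matched), in 38.2% of the promoters of carriers called lower, in 13.2% of those of all genes called lower and in 14.0% of all promoters. The hexamer was not particular to carriers. It stood in 26.3% of promoters of the xenobiotic list and in 3 of 11 goblet cell promoters (27.3%), a list higher in Sec-Pro. In the other lists searched its share was 8.89% to 18.5%. The 2 carriers with the hexamer and the largest differences are both genes of calcium uptake, S100g at chrX:162964600-162964849 and Trpv6 at chr6:41636406-41636655, each on the minus strand and each with a forward and a reversed copy (TGACCT), shown in capitals.
S100g: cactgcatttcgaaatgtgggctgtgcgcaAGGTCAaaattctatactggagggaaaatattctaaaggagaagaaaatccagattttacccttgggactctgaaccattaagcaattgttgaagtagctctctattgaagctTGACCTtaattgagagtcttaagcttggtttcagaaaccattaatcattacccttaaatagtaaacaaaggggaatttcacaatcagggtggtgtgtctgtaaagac
Trpv6: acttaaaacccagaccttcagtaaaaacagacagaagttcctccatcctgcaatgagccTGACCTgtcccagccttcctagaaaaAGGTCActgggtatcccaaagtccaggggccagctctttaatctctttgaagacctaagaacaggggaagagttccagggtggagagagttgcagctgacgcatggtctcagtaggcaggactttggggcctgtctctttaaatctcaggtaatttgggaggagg
A further motif, the E-box CAGCTG, which basic helix-loop-helix factors bind, was searched too: it stood in 3 of 11 goblet cell promoters (27.3%) and 7 of 27 enteroendocrine promoters (25.9%), against 13.0% of all promoters and 10.7% of those of genes called higher. Lists mostly lower in Sec-Pro held it too, with 11 of 47 carrier promoters (23.4%), 17.2% for lipid absorption and 10.5% for xenobiotic metabolism. For mitosis, ER folding and DNA replication the shares were 14.3%, 8.93% and 6.67%. The E-box was thus not particular to the secretory lists. All these motifs were chosen with the differences known, some promoters of a gene overlap, and a match of letters is not evidence of binding.

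Brush border hydrolases, which finish digestion at the cell surface, were lower for 13 of 19 members and higher for 0 (median -0.73), or lower for 7 without ENT replicate 2. Against ENT, DBZ had 14 lower (73.7%, median -1.17) and Rbpj 6 (31.6%, median -0.33), where 23.3% and 21.0% of all genes were lower. Akp3 read 7.19 and 7.69 on the Rbpj arrays, 4.89 and 4.62 on the DBZ arrays and 8.66 and 9.39 on the ENT arrays, with the Rbpj arrays between ENT and the DBZ arrays (-2.93, SE 0.22, adjusted p = 2.88e-05). Treh, trehalase, differed by -1.84, Enpp3, a nucleotide pyrophosphatase, by -1.92 (-0.12, not past the threshold, with the dimmest probe set), and Ace, angiotensin-converting enzyme, by -1.68. Genes of the microvillus and apical surface were lower for 17 of 26 members and higher for 1 (median -0.68): Cdhr5, a protocadherin that links microvilli, differed by -1.39, Espn, the actin bundler espin, by -1.36, and Eps8l3 by -1.29, while Krt18, a keratin, was the 1 higher member (0.66).

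Lipid absorption and chylomicron genes were lower for 23 of 33 members and higher for 5 (median -1.04), and without ENT replicate 2 for 14 and 3. Against ENT, DBZ had 24 lower and 4 higher (72.7% and 12.1%, median -1.34) and Rbpj 13 and 3 (39.4% and 9.09%, median -0.45). Of all genes 23.3% were lower and 21.9% higher in DBZ, and 21.0% and 14.8% in Rbpj, so the higher shares are below those of all genes. Dgat2, which makes triglyceride, read 11.31 and 10.98 on the Rbpj arrays, 8.96 and 8.30 on the DBZ arrays and 11.77 and 11.44 on the ENT arrays (-1.72, SE 0.20, adjusted p = 0.000234), and Abcg5, a sterol exporter, Slc27a2, an acyl-CoA synthetase, and Lipe, hormone-sensitive lipase, differed by -1.81, -1.67 and -1.57. Cd36, the fatty acid receptor, read 6.997 and 8.72 on the Rbpj arrays, 8.72 and 7.65 on the DBZ arrays and 9.62 and 9.85 on the ENT arrays; its difference of -1.71 was lost without ENT replicate 1 (adjusted p = 0.0952), without ENT replicate 2 (adjusted p = 0.133) and without DBZ replicate 2 (adjusted p = 0.0776). The higher members named were Clps, colipase, at 3.39, and Pnliprp2, a lipase, at 1.66. Clps read 10.65 and 12.86 on the Rbpj arrays, 12.46 and 12.65 on the DBZ arrays and 7.01 and 10.52 on the ENT arrays, a Paneth list member too, and without ENT replicate 1 it missed the threshold (1.63, adjusted p = 0.118), while Pnliprp2 overlapped ENT and missed the threshold under 13 of 20 other settings. Without ENT replicate 1 the list had 1 higher member, and without DBZ replicate 1 it had 3. Cd36 differed by -0.93 with its dimmest probe set, and Pnliprp2 by 1.07 without Rbpj replicate 2 and 2.26 without Rbpj replicate 1.

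Mitochondrial and peroxisomal genes were also lower. Of the 70 measured subunits of the respiratory chain 64 were lower and 1 higher, a small and even shift with a median of -0.59. Cox7a1, a subunit of cytochrome oxidase, read 10.45 and 10.78 on the Rbpj arrays, 9.97 and 9.26 on the DBZ arrays and 12.21 and 12.18 on the ENT arrays (-2.08, SE 0.23, adjusted p = 0.000185), and Sdhc, Ndufa5, Uqcrfs1 and Sdhb, of complexes of the chain, differed by -1.13, -1.12, -1.06 and -0.99. Cox7c, the 1 higher member (0.78), missed the threshold with centred arrays (adjusted p = 0.051) and without ENT replicate 1 (adjusted p = 0.18). Fatty acid oxidation, peroxisomes and ketogenesis had 24 of 35 members lower and 1 higher (median -0.66), with 12 lower without ENT replicate 2. Ehhadh, the peroxisomal bifunctional enzyme, read 10.23 and 10.31 on the Rbpj arrays, 9.56 and 9.21 on the DBZ arrays and 11.70 and 11.87 on the ENT arrays (-1.96, SE 0.15, adjusted p = 3.25e-05). Acaa1b, a peroxisomal thiolase, read 9.89 and 10.17 on the Rbpj arrays, 6.88 and 6.35 on the DBZ arrays and 9.48 and 10.35 on the ENT arrays, low on the DBZ arrays only, and missed the threshold without ENT replicate 2 (adjusted p = 0.14).

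Xenobiotic and steroid metabolism had 32 of 49 members lower and 1 higher (median -1.17), and the 2 kinds of Sec-Pro were unlike. Against ENT, DBZ had 38 lower (77.6%, against 23.3% of all genes) and 1 higher (median -1.70), whereas Rbpj had 9 lower and 4 higher (median -0.44). The 18.4% lower in Rbpj is under the 21.0% of all genes in that comparison, and its 8.16% higher is under the 14.8%. Rbp2, the retinol-binding protein of enterocytes, read 12.43 and 11.96 on the Rbpj arrays, 10.75 and 10.18 on the DBZ arrays and 13.19 and 13.24 on the ENT arrays (-1.89, SE 0.20, adjusted p = 0.000152), and Abcc2, an export pump for conjugates, differed by -1.78. Cyp2c29, a cytochrome P450, differed by -2.55, with ENT arrays at 10.40 and 9.27, was -1.89 without Rbpj replicate 1 and -3.20 without Rbpj replicate 2, and missed the threshold without ENT replicate 1 (adjusted p = 0.109). Bco1, which cleaves beta-carotene, was the 1 higher member (0.91). Nucleotide breakdown and ectoenzymes had 12 of 19 lower and 1 higher (median -1.01), among them Ada, adenosine deaminase, which read 14.10 and 13.09 on the Rbpj arrays, 11.18 and 10.81 on the DBZ arrays and 14.74 and 14.48 on the ENT arrays (-2.32, SE 0.25, adjusted p = 0.000165), and Xdh, xanthine dehydrogenase, at -1.73.

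Transcription factors of enterocytes were lower for 27 of 34 members and higher for 1 (median -0.91). Nr5a2, Hnf4g, Ppara, Pparg and Creb3l3, nuclear receptors and a regulator of lipid genes, differed by -2.13, -1.90, -1.84, -1.84 and -1.78. Hnf4g read 8.87 and 8.21 on the Rbpj arrays, 7.78 and 7.42 on the DBZ arrays and 9.52 and 10.43 on the ENT arrays, with every Sec-Pro array below both ENT arrays. Nr5a2 was not past the threshold with its dimmest probe set (-0.20). Ehf, an ETS factor of epithelia, was the 1 higher member (1.21, and 0.019 with the dimmest probe set).

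Reg proteins and mucosal defence had 12 of 28 members lower and 2 higher (median -0.48), 7 lower without ENT replicate 2 and 19 lower with centred arrays. Beside Duoxa2, Dmbt1 and Reg1, the lower members Il18, a cytokine, and Cx3cl1, a membrane chemokine, differed by -1.70 and -1.65, the latter by -0.32 with its dimmest probe set. Antigen presentation and interferon response had 13 of 39 lower and 2 higher (median -0.32), with 6 lower without ENT replicate 2 and 10 higher without Rbpj replicate 2. The 2 kinds of Sec-Pro had unlike counts: against ENT, DBZ had 18 lower and 1 higher (median -0.67) and Rbpj 3 lower and 4 higher (median -0.047). Of all genes 23.3% were lower and 21.9% higher in DBZ, and 21.0% and 14.8% in Rbpj. The list's mean was 9.75 on Rbpj replicate 1 but 8.31 on Rbpj replicate 2, below both DBZ arrays (8.35 and 8.40), and 8.95 and 8.88 on the ENT arrays. The higher Rbpj mean rested on 1 array, so the unlike counts are not read as a difference between the 2 kinds. Usp18, an interferon-induced protease, read 10.63 and 9.58 on the Rbpj arrays, 6.80 and 7.20 on the DBZ arrays and 10.60 and 10.96 on the ENT arrays: the Rbpj arrays were near ENT and the DBZ arrays far below. Immediate-early genes, which also respond to handling of tissue, had 15 of 31 lower and 3 higher (median -0.46), with 6 lower without ENT replicate 1; Fos and Zfp36 differed by -1.69 and -1.89, and Egr1 by 1.03 the other way, although Egr1 missed the threshold without ENT replicate 1 (adjusted p = 0.0785). Time in EDTA differed between the groups, and its part in these genes was not tested. Claudins and junctions had 11 of 31 lower and 2 higher (median -0.24), with 6 lower without ENT replicate 1, 7 without DBZ replicate 2 and 17 with centred arrays; Gjb1, a connexin, differed by -2.25 and Cldn2, a pore-forming claudin of crypts, by 1.62 (not past the threshold with the dimmest probe set, at 0.71).

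Markers of other cells that the preparations could hold moved little as lists. Leukocyte markers had 2 of 42 members higher (Kit and Jchain) and 1 lower (Prf1), with a median of -0.09. Their mean level was 7.41 on Rbpj replicate 1, 6.28 on Rbpj replicate 2, 6.70 and 7.14 on the DBZ arrays and 6.81 and 6.94 on the ENT arrays, and 13 were lower with Rbpj replicate 1 left out, 5 higher without Rbpj replicate 2 and 9 lower with centred arrays. Kit, which mast cells and some secretory cells of the gut make, read 8.66 and 9.78 on the Rbpj arrays, 11.03 and 11.63 on the DBZ arrays and 8.70 and 8.06 on the ENT arrays (1.90, SE 0.33, adjusted p = 0.00189). Jchain, the joining chain of antibodies, lost its call under 13 of 19 other settings. Stromal and vascular markers had 13 of 34 lower and 1 higher (median -0.13; 0.03 after cyclic loess), with 6 lower without either ENT array, 4 higher without DBZ replicate 1 and 8 lower after quantile normalization. Fn1 was the exception in size, and the next lower members, Pdgfrb, Gfap and Acta2, differed by -0.64, -0.63 and -0.61; all 3 missed the threshold with their dimmest probe sets, and Pdgfrb also without ENT replicate 1 (adjusted p = 0.141). Vim, vimentin, was the 1 higher member and read 10.42 and 7.95 on the Rbpj arrays, 8.53 and 8.73 on the DBZ arrays and 5.54 and 6.003 on the ENT arrays. The leukocyte median was 0.20 without Rbpj replicate 2 and 0.01 after cyclic loess. Vim differed by 4.15 with its dimmest probe set, 2.52 without Rbpj replicate 1 and 3.75 without Rbpj replicate 2, and Jchain by 1.68 and 0.24 without ENT replicate 1 and 2.

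Pancreatic acinar genes had 5 of 18 higher and 5 lower (27.8% each; median -0.10, but 0.045 after cyclic loess and 2.86 over members above the median level of all genes), with 1 lower without ENT replicate 1, 3 without ENT replicate 2 or DBZ replicate 2 and 9 with centred arrays. The higher members were Zg16, Rnase1, Bhlha15, Pnliprp1 and Klk1, at 8.01, 5.03, 3.48, 2.25 and 2.24, of which Zg16 and Bhlha15 are also made by intestinal secretory cells. Pnliprp1 overlapped ENT and missed the threshold under 12 of 19 other settings. Red blood cell and platelet markers had 1 of 10 higher, 1 lower and a median of -0.10 (0.06 after cyclic loess; 4 lower with centred arrays). The higher one, Epb42, a protein of the red cell membrane skeleton, read 6.07 and 6.24 on the Rbpj arrays, 8.92 and 8.46 on the DBZ arrays and 3.61 and 3.56 on the ENT arrays and was at least 6.20-fold higher. With the dimmest probe sets Klk1 differed by 0.53 and Epb42 by 1.21, both past the threshold. Pnliprp1 differed by 3.17 without Rbpj replicate 1 and 1.33 without Rbpj replicate 2.

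The Ent-Pro arrays, crypt cells of the same genotype as ENT, were set beside both groups. Sec-Pro against Ent-Pro called 2975 genes (24.0%; 1149 higher, 9.27%, and 1826 lower, 14.7%), and Ent-Pro against ENT 4792 (38.7%; 2501 higher, 20.2%, and 2291 lower, 18.5%); these comparisons share arrays with Sec-Pro against ENT, and values are given side by side with no test of their likeness. Goblet cell products had 17 of 17 members higher in Sec-Pro than in Ent-Pro (median 4.77), and Paneth cell products 9 of 10 (median 4.27). Nutrient and ion carriers had 4 of 38 lower and 7 higher against Ent-Pro (median 0.18), against 31 lower relative to ENT. The 10.5% lower is not above the 14.7% of all genes, and the 18.4% higher is above the 9.27% of all genes. Relative to Ent-Pro, Sec-Pro had 42 of 44 DNA replication genes lower (median -0.87) and mitosis genes 37 of 45 (median -0.78), so their level in Sec-Pro lay between the villus and the Ent-Pro crypts: the mean of the mitosis list was 7.96 and 8.17 on the ENT arrays, 9.02 and 9.50 on the Rbpj arrays, 9.25 and 9.43 on the DBZ arrays and 10.18 and 9.96 on the Ent-Pro arrays. Tuft cell genes had 9 of 14 higher in Sec-Pro than in Ent-Pro (median 1.75), with Ent-Pro means of 6.29 and 6.00. Stem cell markers were higher in Ent-Pro than in ENT too, for 17 of 23 members with 1 lower (median 1.34). Relative to Ent-Pro, Sec-Pro had 10 of the 23 lower (43.5%) and 4 higher (17.4%), with a median of -0.36.

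Single genes followed both patterns. Among the 100 largest differences in each direction, the Ent-Pro mean was nearest Sec-Pro for Trpv6, Pcsk6, Asb11, Mia2 and Ppargc1a among called lower genes, for example 4.43 for Asb11, which read 4.16 and 5.20 on the Rbpj arrays, 4.47 and 4.24 on the DBZ arrays and 7.30 and 7.58 on the ENT arrays. It was nearest ENT for Slc1a1, Adamts15, Lrp1, Nr5a2, Ppargc1b and Nlrp6. Slc1a1, a glutamate carrier, had an Ent-Pro mean of 10.13 and read 6.78 and 8.25 on the Rbpj arrays, 7.85 and 7.85 on the DBZ arrays and 10.70 and 10.07 on the ENT arrays. Lrp1, a lipoprotein receptor, had an Ent-Pro mean of 8.89 against ENT at 9.44 and 9.18 and Sec-Pro from 6.72 to 7.50. Among higher genes the Ent-Pro mean was nearest Sec-Pro for Tubb2b, Evl, Ghr, Phldb2, Tceal9 and Ceacam10. Tceal9 had an Ent-Pro mean of 11.69 and read 11.88 and 12.13 on the Rbpj arrays, 13.01 and 13.30 on the DBZ arrays and 9.39 and 9.66 on the ENT arrays. It was nearest ENT for Clps, Serpina1c, Cyp2e1, Nefm, Epb42 and Ccl6; Nefm, a neurofilament of neurons and endocrine cells, had an Ent-Pro mean of 4.99 and read 7.23 and 7.49 on the Rbpj arrays, 10.05 and 9.60 on the DBZ arrays and 4.82 and 5.18 on the ENT arrays. Ghr and Ceacam10 changed sign with their dimmest probe sets (-0.031 and -0.27), and Hspa1b, the sixth lower gene nearest Sec-Pro, missed the threshold (-2.37, adjusted p = 0.145), though it passed with only the arrays compared (adjusted p = 0.0253) and without either Ent-Pro array (adjusted p = 0.0106 each). With the dimmest probe sets Slc1a1 differed by -1.91 and Evl by 0.57, and Ceacam10 differed by 4.34 and 1.98 without ENT replicate 1 and 2.

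**Figure D4:**
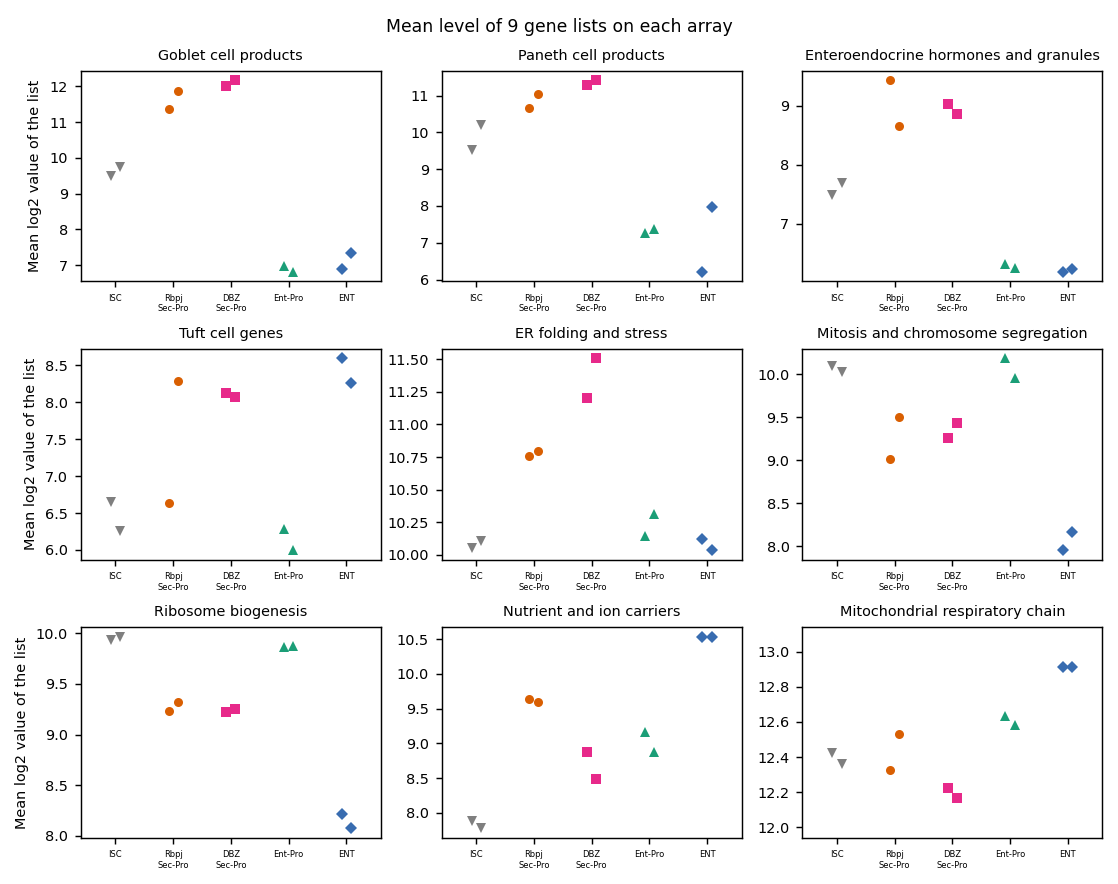
The mean deposited log2 value of 9 gene lists (y axis, scaled for each panel) on each of the 10 arrays, by group (x axis), 1 point per array. Goblet, Paneth and enteroendocrine lists are high in both Sec-Pro groups and low in Ent-Pro and ENT, mitosis and ribosome lists are lowest in ENT, and nutrient carriers are highest in ENT, with the Rbpj arrays between ENT and the DBZ arrays.

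The 2 ways of enriching Sec-Pro gave unlike distances from the villus. Against ENT, DBZ called 5590 genes (45.1%), of which 2708 (21.9%) were higher and 2882 (23.3%) lower. Rbpj called 4437 (35.8%), of which 1831 (14.8%) were higher and 2606 (21.0%) lower, and 2735 without ENT replicate 1. DBZ and Rbpj were compared directly, where 2036 genes (16.4%) differed, 1158 (9.34%) higher and 878 (7.08%) lower in DBZ. That count fell to 363 without DBZ replicate 2 and was 1018 without Rbpj replicate 1 and 1273 without DBZ replicate 1. Xenobiotic and steroid metabolism had 27 of 49 members lower and 0 higher in DBZ (median -1.10), nutrient and ion carriers 17 of 38 lower and 2 higher (median -0.85), lipid absorption 13 of 33 lower and 0 higher (median -0.74) and antigen presentation 14 of 39 lower and 0 higher (median -0.56). For antigen presentation the 2 Rbpj arrays were unlike: the list's mean was 9.75 on Rbpj replicate 1 and 8.31 on Rbpj replicate 2, below both DBZ arrays. ER folding genes had 29 of 60 higher and 0 lower in DBZ (median 0.55) and secretory transcription factors 16 of 25 higher and 0 lower (median 1.19). Goblet cell products had 4 of 17 higher and 1 lower, and the division lists hardly differed (mitosis 1 higher and 0 lower of 45, ribosome biogenesis 0 higher and 1 lower of 46). The mean of the carriers was 9.64 and 9.59 on the Rbpj arrays, 8.88 and 8.49 on the DBZ arrays and 10.53 and 10.54 on the ENT arrays.

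Among genes called both between Sec-Pro and ENT and between DBZ and Rbpj, the largest excess in Rbpj was in S100g, with a DBZ minus Rbpj difference of -5.69, and in Cyp1a1, a cytochrome P450 induced through the aryl hydrocarbon receptor, where it was at least 36.7-fold. Cyp1a1 read 11.05 and 8.78 on the Rbpj arrays, 4.71 and 4.58 on the DBZ arrays and 9.29 and 10.13 on the ENT arrays, and it was near background on both DBZ arrays. The Rbpj arrays overlapped ENT, and the DBZ arrays were far below. Slc40a1 differed by -3.92, and Gsta4 and Gsta2, glutathione transferases, by -3.69 and -3.83. Gsta2 read 9.07 and 8.98 on the Rbpj arrays, 5.52 and 4.87 on the DBZ arrays and 8.76 and 9.05 on the ENT arrays, with Rbpj level with ENT. Against ENT, Cyp1a1 and Gsta4 missed the threshold without ENT replicate 2 (adjusted p = 0.0594 and 0.157), and Gsta4 also without DBZ replicate 2 (adjusted p = 0.061).

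The largest excess in DBZ was in Gt(ROSA)26Sor, the transcript of the Rosa26 locus, which read 3.67 and 3.71 on the Rbpj arrays, 9.19 and 9.27 on the DBZ arrays and 8.17 and 8.28 on the ENT arrays, 4.00 and 3.81 on the Ent-Pro arrays and 8.89 and 8.47 on the ISC arrays. It was near the level of the absent control on the Rbpj and Ent-Pro arrays and well above it on the other 6, which include ENT of the same labelled genotype as Ent-Pro (at least 23.8-fold higher in DBZ than in Rbpj). Cyp2e1, a cytochrome P450, read 6.82 and 7.62 on the Rbpj arrays, 10.69 and 9.89 on the DBZ arrays and 5.30 and 5.26 on the ENT arrays, with both Sec-Pro groups above ENT and DBZ above Rbpj by 3.07. Bhlha15, the factor MIST1 of secretory cell architecture, read 8.53 and 9.63 on the Rbpj arrays, 11.36 and 12.01 on the DBZ arrays and 6.93 and 6.88 on the ENT arrays, in the same order, by 2.60; its dimmest probe set gave no call against ENT (0.50). Tceal8 and Thbs1, the latter encoding thrombospondin, were higher in DBZ by 2.59 and 2.56. Against ENT, Tceal8 missed the threshold without ENT replicate 1 (adjusted p = 0.146). With the 4 Sec-Pro arrays treated as 1 group, so that the spread between DBZ and Rbpj entered the error, S100g, Cyp1a1, Slc40a1, Gsta2, Gsta4, Gt(ROSA)26Sor, Tceal8 and Thbs1 were not called against ENT (adjusted p from 0.0521 to 0.421), and neither were Rbpj, Abcc2, Acaa1b, Aqp1, Dgat2, Kit, Papss2, Reg1 and Usp18. Trpm5 (adjusted p = 0.0685), Prf1 (adjusted p = 0.0879), Retnlb, Jchain, Pnliprp1, Pnliprp2 and Cela3b also lost their calls. Thbs1 differed from ENT by 1.65 with its dimmest probe set.

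**Figure D5:**
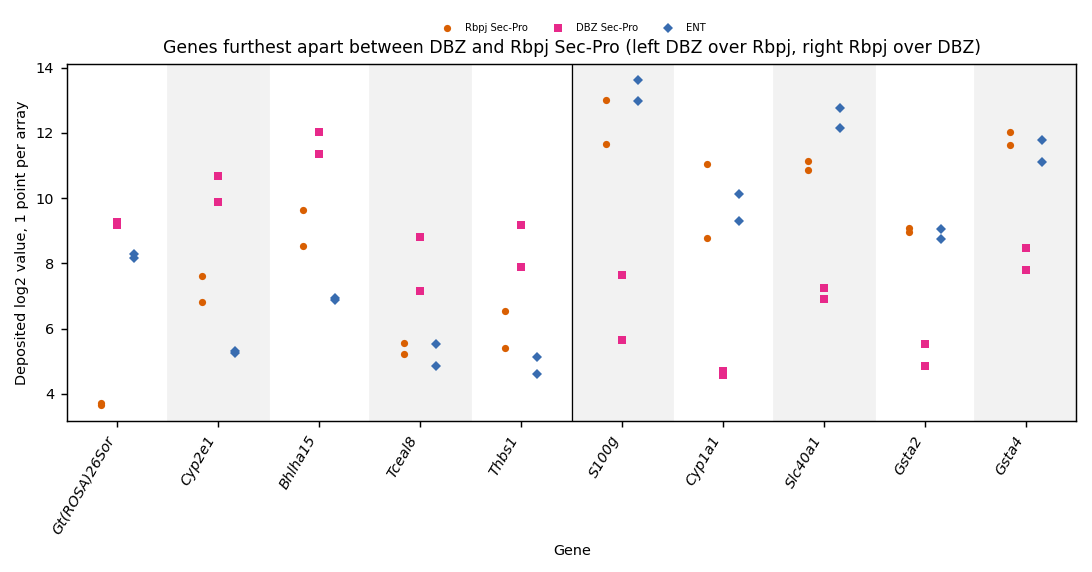
The deposited log2 value (y axis) of the 5 genes with the largest excess in DBZ Sec-Pro (left) and the 5 with the largest excess in Rbpj Sec-Pro (right) among genes called in both comparisons (x axis), 1 point per array for 2 Rbpj Sec-Pro, 2 DBZ Sec-Pro and 2 ENT arrays. For S100g, Cyp1a1, Gsta2 and Gsta4 the Rbpj arrays overlap the ENT arrays or lie close to them, and the DBZ arrays lie below both.

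Opposite calls against ENT were made for 17 genes, each past the threshold in both comparisons with ENT and with signs that differed. Beside Rbpj and Gt(ROSA)26Sor the widest apart were Abhd1, which was -1.98 in DBZ and 2.52 in Rbpj against ENT, Bbox1, the last enzyme of carnitine synthesis, at -2.04 and 2.03, and Cbx6, a Polycomb protein, at 1.78 and -1.35. Abhd1 read 9.71 and 9.38 on the Rbpj arrays, 5.16 and 4.92 on the DBZ arrays and 7.06 and 6.99 on the ENT arrays, and Cbx6 read 6.53 and 5.67 on the Rbpj arrays, 9.16 and 9.29 on the DBZ arrays and 7.40 and 7.49 on the ENT arrays. In both the ENT arrays lay between the 2 kinds of Sec-Pro, with no overlap among the 3 groups. These 3 genes were named after their values were seen.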

How the data were processed

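Total RNA, extracted with Trizol, was hybridised to 10 Affymetrix mouse 430A 2.0 arrays. The values are the authors' deposited log2 levels per probe set; the submitters' processing notes name RMA and MAS5 without saying which made them, and no version or genome build is given in the sources used here. Of 22690 probe sets 20393 had a single symbol, 691 several and 1606 none; the brightest probe set over the 10 arrays stood for each of 12393 genes. A linear model over all 10 arrays and 5 groups (limma 3.58.1 in R 4.3.3, 5 residual and 3.75 prior degrees of freedom) gave log2 differences and Benjamini-Hochberg adjusted p-values over all genes; genes below 0.05 were called. A fold is 2 to the power of the difference.

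The comparison, the 30 gene lists (965 of 1134 genes measured) and the naming rule were chosen with earlier results of these data known. Named are Atoh1, Rbpj and Lgr5, the 12 largest non-overlapping differences and the 5 smallest p-values per direction, up to 5 called members per list and up to 2 the other way, the 5 most unlike between DBZ and Rbpj, and the 6 nearest Ent-Pro. Alternatives were other scalings, probe sets, models and arrays left out in turn. The labels name nothing that same-numbered arrays share beyond the number. The fit was also run on simulated arrays with planted changes and independent noise, which checks the code and not the independence of these samples.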

Additional observations from a re-analysis of the deposited data

Results flagged for a closer look

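The difference from ENT was not the same for both kinds of Sec-Pro: a direct test of DBZ against Rbpj Sec-Pro (limma, Benjamini-Hochberg adjusted) called 2036 genes. Among genes named above, the log2 difference DBZ minus Rbpj was 5.54 for Gt(ROSA)26Sor, 3.07 for Cyp2e1, 2.60 for Bhlha15, 2.59 for Tceal8, 2.56 for Thbs1 and 1.61 for Rbpj. It was -5.69 for S100g, -5.27 for Cyp1a1, -3.92 for Slc40a1, -3.83 for Gsta2 and -3.69 for Gsta4. Gt(ROSA)26Sor was near background on both Rbpj arrays and Cyp1a1 on both DBZ arrays, so these 2 differences are bounds in effect, at least 23.8-fold and at least 36.7-fold. Rbpj is the gene deleted in 1 of the 2 groups. Groups of 2 arrays are too small for a check of single arrays that lie apart.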

How the results depend on the processing

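Each group holds 2 arrays, and with 1 left out the lone array is assumed to vary like the other groups. Differences of the 1467 genes near background in both Sec-Pro and ENT are not read. Tested against a 2-fold change, calls numbered 404 for Sec-Pro against ENT, 664 for DBZ against ENT, 170 for Rbpj against ENT, 19 for DBZ against Rbpj, 170 for Sec-Pro against Ent-Pro and 608 for Ent-Pro against ENT. With genes above the median level only, Rbpj against ENT called 2948 and DBZ against Rbpj 1167. DBZ against Rbpj called 691 when only the DBZ, Rbpj and ENT arrays were fitted. Sec-Pro against Ent-Pro called 1530 with the 4 Sec-Pro arrays as 1 group. Leaving out single arrays gave 3900 to 5963 calls for Sec-Pro against ENT, 3929 to 6006 for DBZ against ENT, 2735 to 4283 for Rbpj against ENT, 363 to 2742 for DBZ against Rbpj, 903 to 3714 for Sec-Pro against Ent-Pro (903 and 911 without the Ent-Pro arrays) and 3319 to 5220 for Ent-Pro against ENT.

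Same-numbered arrays did not deviate together (correlations of -0.19 to 0.17), and with the replicate number as a block Sec-Pro against ENT called 5422 genes, 5340 of them among the 5648.

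With the dimmest probe set 9 of 207 named genes changed sign: Ceacam10 (-0.27), Cela3b (0.33), Ghr (-0.031), Lrig1 (-0.25), Msi1 (-0.55), Notch4 (-0.098), Rab3d (-0.072), Tnfrsf19 (-0.17) and Top2a (-0.34). Over 20 settings, or 19 for genes not above the median level, 133 of the 207 kept their direction and side of the threshold. The median changed sign for 7 of 30 lists, 13 values in all. It did so for Golgi genes with centred arrays (-0.13) and without Rbpj replicate 1 (-0.001, with 0.108 as the highest value when single arrays were left out), for Wnt targets with centred arrays (-0.10) and the dimmest probe set (-0.048), for the Notch pathway after cyclic loess (0.014) and above the median level (0.001), for leukocyte markers after cyclic loess (0.01) and without Rbpj replicate 2 (0.20), for stromal markers after cyclic loess (0.033), for pancreatic acinar genes after cyclic loess (0.045) and above the median level (2.86), and for red blood cell markers after quantile normalization (0.032) and cyclic loess (0.058). Of the values with no change of sign 519 stayed within the spread between replicates and 66 moved beyond it. Differences of 51 named genes moved by over 1.5-fold under some setting, 38 of them with the dimmest probe set.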
